A study of Mus musculus with 28 samples.

Results

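The step from culture into the host was examined in CD4+ T cells that recognise TRP1, a protein of pigment cells and melanomas, by comparing cells at the end of polarising culture (day 0) with cells recovered 5 days after transfer into mice (day 5). Of the 28 arrays of the series, 16 were compared: every array labelled day 0 in vitro (4) and every array labelled day 5 ex vivo (12). Donor cells came from the strain BwTRP1 Rag1-/-, whose CD4+ T cells carry a transgenic receptor for TRP1, and were cultured for 7 days with TRP1 peptide on irradiated (30 Gy) splenocytes of C57/B6 mice. Th1 cultures received IL-12 and an antibody to IL-4. Th17 cultures received IL-1, IL-6, IL-21 and TGFβ2 with antibodies to IL-2, IL-4 and IFN-γ, and later IL-23. Medium with IL-2 was given to both kinds of culture later on.

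Hosts were B6.PL mice, which carry Thy1.1, given 5 Gy of radiation before transfer. On day 5 the Thy1.2+ donor cells were recovered from spleens and inguinal lymph nodes by CD4 enrichment and a sort for Thy1.2. On both days each type had unstimulated cells and cells exposed for 2 h to anti-CD3 and anti-CD28, here termed the parts of a sample. Type and restimulation give 4 combinations, each with 1 array at day 0 and 3 at day 5. The sources used here do not give the age of the mice, do not say whether the 2 parts of a type at day 0 came from 1 culture, and leave it unsaid whether each replicate is a mouse of its own. P-values therefore measure only the spread among these arrays, that is among day 5 replicates and between the changes of the 4 combinations. With 1 array per combination, day 0 adds no replicate spread. The main fit counts the 2 parts of a sample as separate arrays. Day 5 cells were enriched and sorted, while the sources used here do not say whether day 0 cells were. Day 0 and day 5 also differ by culture against an irradiated host, and the parts of culture, host and any difference in sorting cannot be told apart.

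CD4+ T cells expanded in culture with antigen, cytokines and IL-2 are large, growing cells that take up much glucose, make their own lipids and respond to IL-2 through STAT5. After transfer they circulate between blood, spleen and lymph nodes. The transcription factor Klf2 drives S1pr1, the receptor that lets T cells leave lymphoid organs, while Ccr7 guides them into lymph nodes and integrins hold them to vessel walls and tissue. Th1 cells are defined by T-bet (Tbx21) and interferon-γ, Th17 cells by IL-17 and the receptor for IL-23.

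Values are log2 RMA units, so a difference of 1 is a 2-fold change. For single genes the 4 day 0 values are given in the order unstimulated Th1, restimulated Th1, unstimulated Th17 and restimulated Th17, and the 12 day 5 arrays by their lowest, highest and median value. The change of a gene is the day 5 minus day 0 term of 1 linear model with type, restimulation and their interaction, given with its standard error (SE) and a limma p-value adjusted over all 19938 genes. A gene was called at an adjusted p under 0.05. The medians of the arrays, taken over all 35556 probe sets, ran from 6.77 to 7.03. A value under them is not shown to be above background, and a fold drawn from such values may understate the change. A change is termed shared where the gene was called and, in each of the 4 combinations, the day 0 array lay outside the range of its 3 day 5 arrays on the same side.

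The day 0 arrays held transcripts of marker genes of other cell types that were much lower at day 5, as the plot of marker lists by array shows. The mean of 28 markers of mast cells and basophils, a list assembled after the values were seen, ran from 8.47 to 8.89 at day 0 and from 5.64 to 6.04 (median 5.77) at day 5. Of its members 22 fell and 1 rose, and the number lying under the median of the array on every array was 5 at day 0 and 20 at day 5. The 5 platelet and megakaryocyte markers all fell, with list means of 9.91 to 10.49 at day 0 and from 6.44 to 6.71 (median 6.52) at day 5. Of 20 markers of macrophages and mature dendritic cells, also chosen after the values were seen, 18 fell, with list means of 7.52 to 8.96 at day 0 and from 6.20 to 6.91 (median 6.34) at day 5. Among 10 dendritic cell and MHC class II genes 5 fell and 1 rose, and among 15 myeloid genes 8 fell, a count of 4 without either Th17 array of day 0. Of 6 erythroid genes 2 fell. Of 9 B cell markers 3 rose, 1 without the restimulated Th17 array of day 0, and 1 fell. Of 5 NK cell markers 1 rose, 2 without the restimulated Th1 array of day 0, and 2 fell. For CD8 T cells 0 of 2 markers were called, and 1 of 11 fibroblast markers fell. Over all genes, 18.3% were called higher and 19.1% lower. The fibroblast falls numbered 0 without the unstimulated Th17 array of day 0, 3 without the unstimulated Th1 array and 2 without either restimulated array of day 0, and the rises 1 without the restimulated Th1 array. T cell markers stood at list means of 11.94 to 12.25 at day 0 and from 12.23 to 12.46 (median 12.33) at day 5, and 4 of 8 rose. All 4 day 0 arrays carried mast cell, basophil and platelet marker transcripts, so no comparison without them could be made. The part of other cells in the changes below was not tested. In bulk RNA, fewer cells of a type and less RNA per cell cannot be told apart.

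**Figure D1:**
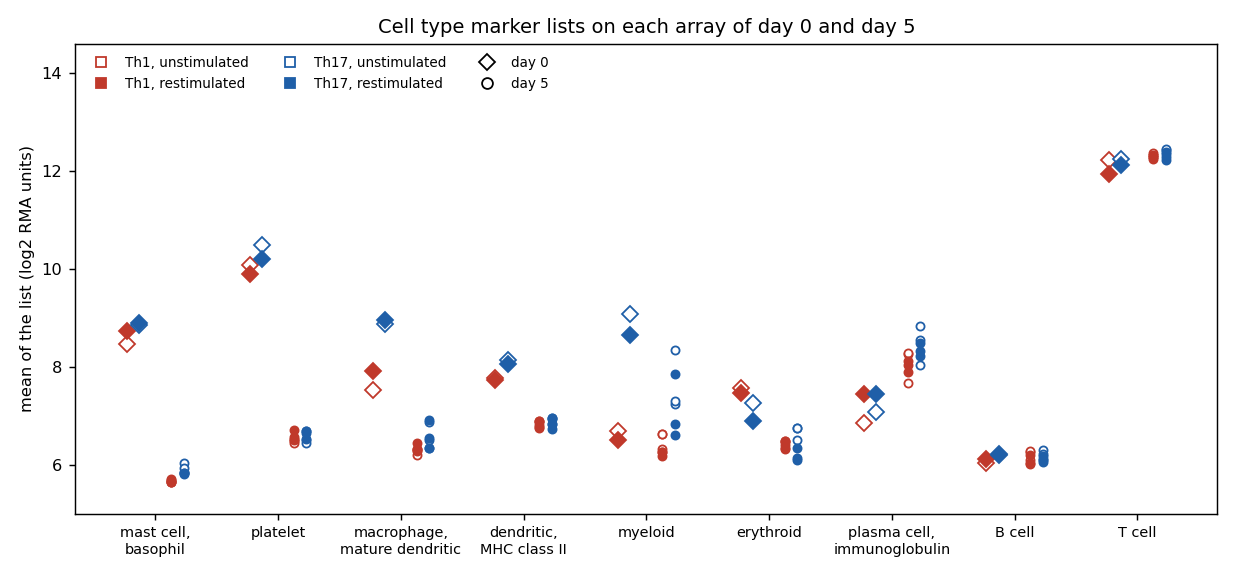
Mean log2 RMA value of 9 cell type marker lists (x axis) on each of the 16 arrays, diamonds for day 0 and circles for day 5, red for Th1 and blue for Th17, filled for restimulated parts. The mast cell and basophil list lies at 8.47 to 8.89 at day 0 and at 5.64 to 6.04 at day 5, while the T cell list lies at 11.94 to 12.46 throughout.

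Between day 0 and day 5, 7443 of 19938 genes were called (37.3%), 3641 higher at day 5 (18.3%) and 3802 lower (19.1%). Called changes of at least 2-fold numbered 1063 (5.33%), 299 higher (1.5%) and 764 lower (3.83%). All 12 day 5 arrays lay above all 4 day 0 arrays for 804 genes (4.03%) and below them for 1214 (6.09%). Shared changes numbered 4261 (21.4%), of which 2010 were higher (10.1%) and 2251 lower (11.3%). A change of at least 2-fold in each of the 4 combinations was found for 86 shared genes that rose (0.431%) and 302 that fell (1.51%). Without the unstimulated Th1 array of day 0, 164 rose in this way. The values were used as deposited, and the median change over all genes was 0.05. Centring each array on its median over the 19938 genes, not over all probe sets, moved this to 0.18. It gave 9604 higher and 2761 lower calls, 77.7% higher against 48.9% as deposited, while cyclic loess gave 44.5%.

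The genes that fell most in all combinations were led by products of mast cells and basophils. Mcpt2, a mast cell protease, stood at 10.49, 11.31, 13.30 and 13.20 log2 units at day 0. At day 5 it lay at 4.12 to 5.41 with a median of 4.51, a 181-fold fall (log2 change -7.50, SE 0.30, adjusted p = 5.07e-11). The groups did not overlap. Fcer1a, a chain of the high-affinity IgE receptor, fell 89.6-fold, from 11.29, 11.11, 11.69 and 11.54 to values of 4.65 to 5.30 with a median of 4.92. Cpa3, a mast cell carboxypeptidase, fell 150-fold and Tph1, the enzyme that starts serotonin synthesis, fell 92.7-fold. Platelet and megakaryocyte products fell with them, Ppbp by 79.2-fold and Pf4 by 32.3-fold. The other genes among the 15 largest falls were Mcpt1, Cd63, Csf2rb2, Scin, Rgs18, Csf2rb, Cyp11a1, Il6 and Ccl22, with log2 changes from -6.94 (Mcpt1) to -4.88 (Ccl22). Mcpt1 and Mcpt2, and Csf2rb and Csf2rb2, are pairs of relatives whose probe sets may share signal. The day 5 values of Mcpt2, Fcer1a, Tph1, Ppbp, Pf4 and most others of these 15 lay under the median of every array, so their folds are best read as lower bounds and their order is not settled.

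Genes of antigen presentation fell as well. H2-Aa, a chain of MHC class II, stood at 9.73, 9.49, 10.34 and 10.28 at day 0 and from 5.87 to 7.29 with a median of 6.45 at day 5, a 11.6-fold fall (adjusted p = 1.3e-10). No day 5 array reached a day 0 value. H2-Ab1 fell 6.64-fold, H2-Eb1 4.85-fold and Cd74, the invariant chain, 4.65-fold. Ccl17 and Ccl22, chemokines of mature dendritic cells, fell 11.5-fold and 29.4-fold, and Fscn1, an actin bundling protein of those cells, 12.7-fold. The inflammatory cytokine Il6 went from 7.11, 10.31, 8.54 and 10.25 to values of 3.44 to 6.18 with a median of 3.82. Its highest day 0 values were those of the restimulated parts.

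The largest shared rise was that of Dtx1, which encodes the Notch pathway ubiquitin ligase Deltex-1. It stood at 7.56, 7.93, 7.40 and 7.06 at day 0 and at 10.84 to 12.10 with a median of 11.73 at day 5, 17.9-fold higher (log2 change 4.16, SE 0.18, adjusted p = 1.44e-10). Rap1gap2, which switches off the adhesion GTPase Rap1, rose 15.7-fold, and Rasgrp2, which switches Rap1 on, rose 11.6-fold. Slamf6, a signalling receptor of lymphocytes, rose 6.74-fold, with changes of 2.86, 2.94, 2.45 and 2.76 in the 4 combinations. S100a4, a calcium-binding protein of effector and memory T cells, rose 8.58-fold. Gzmk, a granzyme of memory T cells, stood at 9.18, 8.27, 6.57 and 6.89 at day 0 and at 10.20 to 11.36 with a median of 10.86 at day 5, 8.43-fold higher. The unstimulated Th1 array held the highest of the 4 day 0 values. Sidt1, Apobec2, Muc20 and Xdh were also among the 15 largest rises, with log2 changes of 3.76, 3.85, 3.02 and 2.80.

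Immunoglobulin transcripts were among the shared rises too. Ighg3 stood at 3.98, 4.65, 4.37 and 4.19 at day 0 and from 4.81 to 9.19 with a median of 7.75 at day 5 (9.41-fold higher, adjusted p = 3.64e-05), so the day 5 arrays differed widely among themselves. Jchain, which joins antibody units, rose 7.71-fold. Of 14 plasma cell and immunoglobulin genes, a list assembled after the values were seen, 9 rose and 1 fell, with list means of 6.84 to 7.44 at day 0 and from 7.67 to 8.84 (median 8.24) at day 5. The falls numbered 4 without the unstimulated Th1 array of day 0, and 2 without the unstimulated Th17 array of day 0 or without unstimulated Th1 array 3 of day 5. The B cell list, by contrast, had means from 6.04 to 6.23 at day 0 and from 6.01 to 6.30 (median 6.16) at day 5, with Cd79a at a change of 0.36 (adjusted p = 0.127; 0.0390 without unstimulated Th1 array 1 of day 5) and Pax5 at 0.14 (adjusted p = 0.167). The part of other cells in these transcripts was not tested. Immunoglobulin gene segments resemble each other, so their probe sets may share signal.

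The genes that steer T cells through tissue changed strongly. Of 15 measured genes of homing and egress, 8 rose (53.3%, against 18.3% of all genes) and 3 fell (20.0%, against 19.1%). The median change was 0.42, and 7 of the rises were shared. Klf2 stood at 7.69, 7.87, 7.11 and 7.40 at day 0 and at 9.98 to 11.46 with a median of 10.98 at day 5, 10.3-fold higher (log2 change 3.36, SE 0.20, adjusted p = 4.23e-09). S1pr1, its target, stood at 9.18, 6.68, 10.05 and 9.16 at day 0. On day 5 arrays it lay at 10.42 to 11.65 with a median of 11.25, 5.04-fold higher (adjusted p = 5.42e-06). Its rise was steepest in restimulated Th1 cells, whose day 0 array held the lowest value. S1pr4, a related receptor, rose 2.51-fold.

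Chains of the α4 integrins, which bind ligands on vessel walls, rose. Itga4, the α4 chain, stood at 10.05, 9.12, 10.43 and 9.15 at day 0 and at 12.19 to 12.79 with a median of 12.51 at day 5, 7.05-fold higher (adjusted p = 7.33e-10). Its partners Itgb1 (β1) and Itgb7 (β7) rose 3.41-fold and 2.39-fold. Itgae, the αE chain that holds T cells in epithelium, fell 5.97-fold, from 8.94, 8.35, 10.75 and 10.42 to values of 6.52 to 7.66 with a median of 6.92. Ccr7 changed by -2.48, -2.03, -0.96 and -0.39 log2 units in the 4 combinations, 2.76-fold lower on average (adjusted p = 3.84e-04). The 6 Th1 arrays of day 5 lay well under the day 0 values, whereas the highest Th17 arrays of day 5 overlapped the day 0 range. Cd44, an adhesion receptor of activated T cells, and Cd69, which opposes S1pr1, were not called (changes 0.10 and 0.24, adjusted p = 0.324 and 0.0683). Cd69 was called higher without the unstimulated Th1 array of day 0 (adjusted p = 0.00320) or unstimulated Th1 array 2 of day 5.

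**Figure D2:**
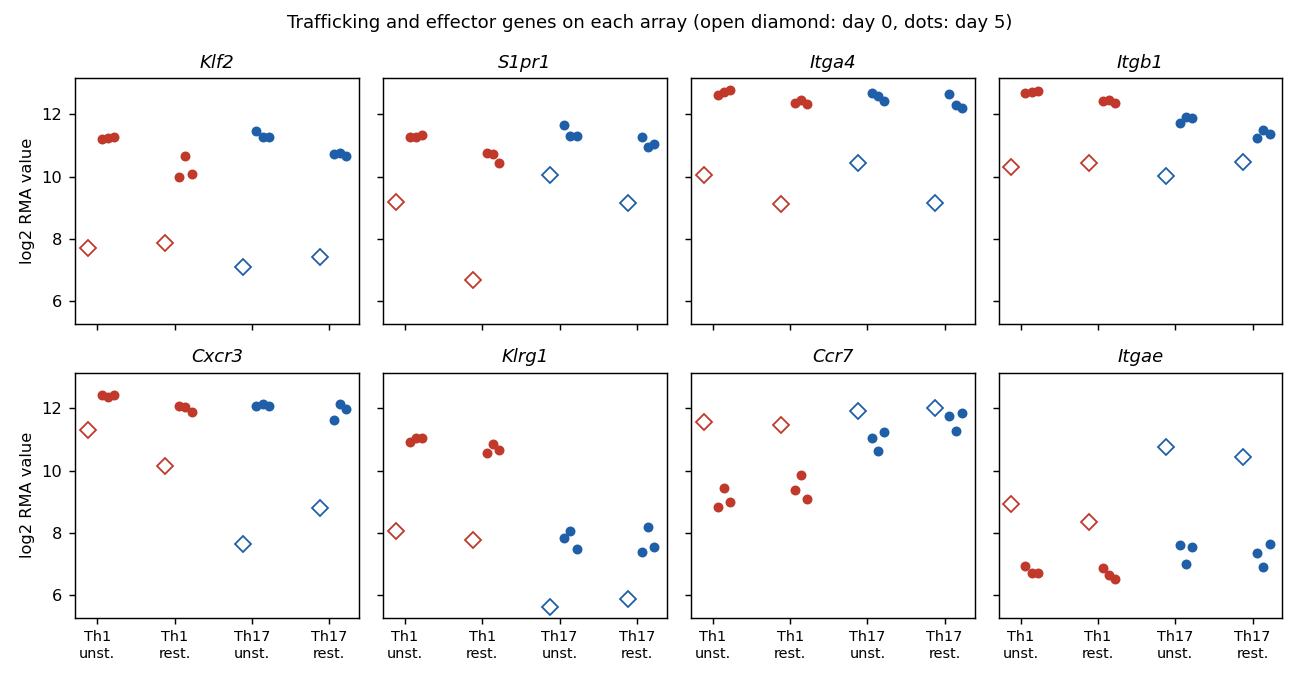
Log2 RMA value (y axis) of 8 trafficking and effector genes on each array, by type and restimulation (x axis: unst., unstimulated, and rest., restimulated), with the day 0 array as an open diamond and the 3 day 5 arrays as dots. Every dot lies above its diamond for Klf2, S1pr1, Itga4, Itgb1, Cxcr3 and Klrg1 and below it for Ccr7 and Itgae.

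Among 8 inflammatory chemokine receptors 1 rose (12.5%, against 18.3% of all genes) and 2 fell (25%, against 19.1%). Cxcr3, which draws cells to interferon-induced chemokines, stood at 11.30, 10.16, 7.64 and 8.81 at day 0 and at 11.61 to 12.44 with a median of 12.07 at day 5, 6.17-fold higher (adjusted p = 1.98e-05). Its day 0 values in Th17 cells lay well under those in Th1 cells, and at day 5 the ranges of the types overlapped. Ccr8, a receptor of skin-homing and Th2 cells, fell 2.16-fold. Ccr4 had a change of -0.73 (adjusted p = 0.0184) that was not called without the unstimulated Th1 array (adjusted p = 0.0586) or the restimulated Th17 array (adjusted p = 0.0623) of day 0. Cx3cr1 was not called (change 0.72, adjusted p = 0.0606) but was without the unstimulated Th17 array of day 0 (adjusted p = 0.00454) and without either part of Th17 sample 1 of day 5.

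Genes of quiescence and memory went both ways. Of 19 measured, 3 rose (15.8%, against 18.3% of all genes) and 6 fell (31.6%, against 19.1%), with a median of -0.16. The falls numbered 3 without either Th1 array of day 0 or with the parts of each sample averaged, and the rises 5 without the unstimulated Th1 array. Klf3, a relative of Klf2, rose 5.09-fold, from 8.27, 8.21, 8.01 and 7.97 to values of 9.99 to 11.05 with a median of 10.50. Btg2, which restrains proliferation, rose 2.36-fold. Bach2, a repressor that restrains effector differentiation, fell 2.61-fold, from 10.03, 10.11, 10.66 and 11.41 to values of 7.72 to 10.45 with a median of 9.17. Satb1, an organiser of chromatin in T cells, fell 1.69-fold, and Bcl2, a survival protein, 1.65-fold. Il7r, a chain of the receptor for IL-7, changed by -1.74, -1.5, -0.16 and 0.15 in the 4 combinations and its mean change of -0.81 (adjusted p = 0.0189) was not called without the unstimulated (adjusted p = 0.126) or the restimulated Th1 array of day 0 (adjusted p = 0.104). Lef1, a Wnt pathway factor, was not called (change 0.09, adjusted p = 0.479).

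Of 11 genes of effector and terminal differentiation, 4 rose (36.4%, against 18.3% of all genes) and 2 fell (18.2%, against 19.1%). The falls went to 1 without the unstimulated Th17 or the restimulated Th1 array of day 0 and to 0 without the restimulated Th17 array. Klrg1, an inhibitory lectin of late effector cells, stood at 8.08, 7.77, 5.64 and 5.87 at day 0 and at 7.39 to 11.05 with a median of 9.37 at day 5, 5.51-fold higher (log2 change 2.46, SE 0.17, adjusted p = 3.61e-08). Each of the 12 day 5 arrays lay above the day 0 array of its own combination, and the ranges of the types differed. Maf, a regulator of helper cells, rose 1.44-fold. The falls were those of Zeb2 and Id2. Zeb2 stood at 8.44, 10.65, 8.44 and 9.76 at day 0 and at 6.62 to 9.71 at day 5. Its day 5 arrays lay under their own day 0 array except in unstimulated Th1 cells, where they lay above it. Tbx21 changed by 0.53, 0.14, 4.58 and 0.70, mostly in unstimulated Th17 cells, whose day 0 array was the lowest of the 4 day 0 values (11.33, 11.63, 6.81 and 10.36). Without that array Tbx21 was not called (adjusted p = 0.0658).

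Transcripts of IL-2 response genes fell. Of 15 genes of the IL-2 receptor and its STAT5 response, 12 were lower at day 5 (80.0% against 19.1% of all genes) and 0 higher, with a median of -0.66 and 7 shared falls. With weights for array quality, and also on Th17 arrays alone, 7 fell. Without the restimulated Th17 array of day 0, 1 rose. Il2ra, the high-affinity chain of the IL-2 receptor, stood at 12.97, 13.15, 12.92 and 13.23 at day 0 and at 11.24 to 12.70 with a median of 12.17 at day 5, 2.01-fold lower (adjusted p = 1.88e-05). The groups did not overlap. Tnfrsf8, which encodes CD30, fell 9.80-fold, from 9.24, 10.44, 11.56 and 10.84 to values of 6.92 to 7.43 with a median of 7.29. The cytokines Lta and Lif fell 4.04-fold and 3.64-fold. Socs1, a feedback inhibitor of cytokine signals, fell 2.15-fold and Cish, a STAT5 target, 1.30-fold. Il2rb, the β chain, was not called (change 0.15, adjusted p = 0.0531), and was called higher without the restimulated Th17 array of day 0 (adjusted p = 0.00714).

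Other cytokine receptors split, with 4 of 15 higher (26.7%, against 18.3% of all genes) and 6 lower (40%, against 19.1%). The rises numbered 2 without the restimulated Th17 array of day 0. Ifngr2, the signalling chain for interferon-γ, fell 3.18-fold, from 9.34, 9.30, 11.45 and 11.28 to values of 6.98 to 10.75 with a median of 8.49, with every day 5 array under its own day 0 array. Il4ra fell 2.76-fold and Il6st, the shared chain of IL-6 family receptors, 1.65-fold, both without overlap. Il23r, the receptor that sustains Th17 cells, changed by -0.38, -0.59, -2.05 and -1.98, 2.38-fold lower on average (adjusted p = 3.35e-04). Il10ra rose 1.63-fold. Il18rap, a chain of the IL-18 receptor, had a change of 0.73 that was not called without the restimulated Th17 array of day 0 (adjusted p = 0.0599).

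**Figure D3:**
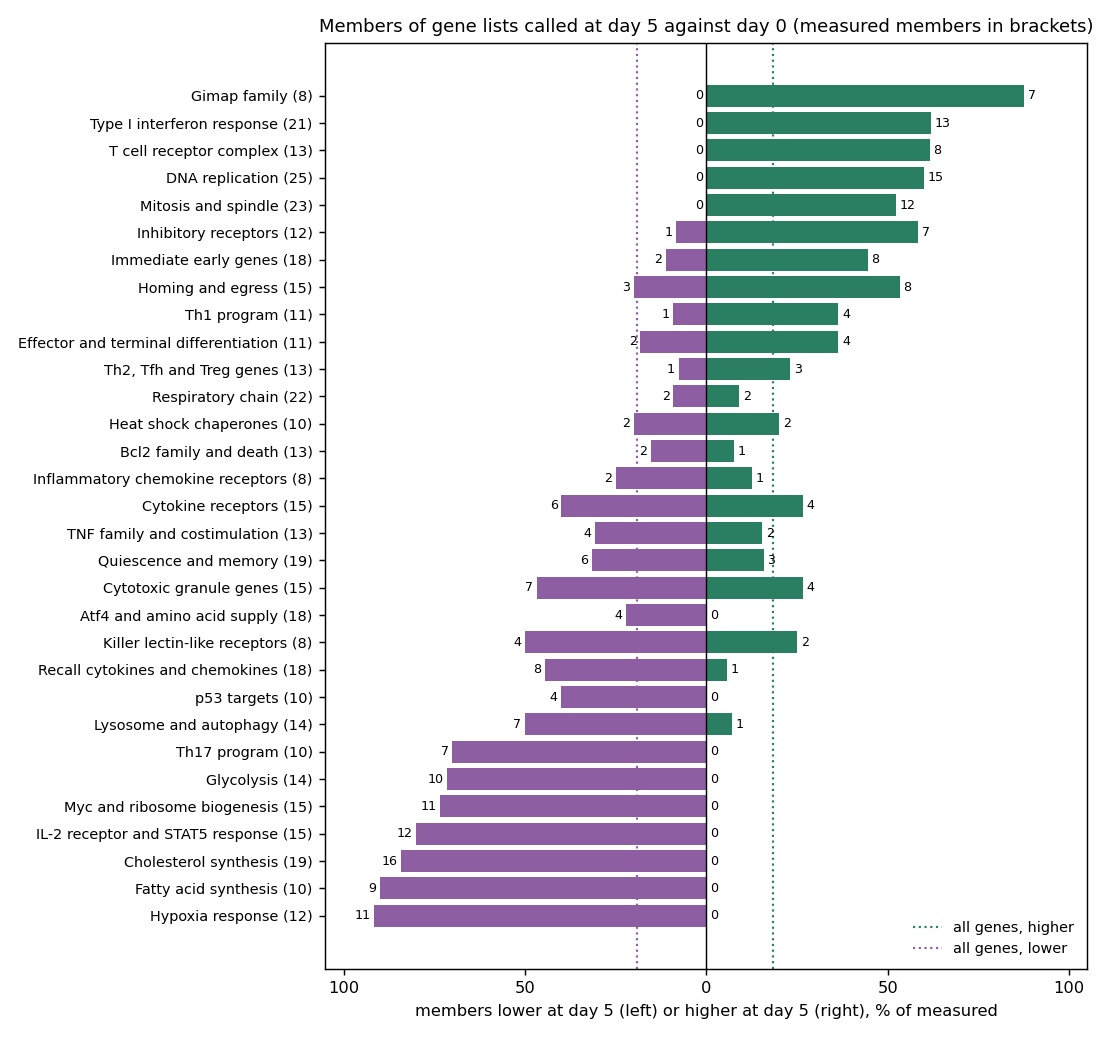
Share of the measured members of each of 31 gene lists that was called lower (purple, to the left) or higher (green, to the right) at day 5, with the count at the end of each bar and the number measured in brackets. Dotted lines mark the shares of all genes, 19.1% lower and 18.3% higher. The hypoxia list has 11 of 12 members lower and the Gimap family 7 of 8 higher.

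Glycolysis genes fell. Of 14 measured, 10 were lower at day 5 (71.4%), all 10 shared, and 0 higher, with a median of -0.70. Hk2, the hexokinase induced in growing cells, stood at 10.30, 10.91, 10.26 and 10.60 at day 0 and at 7.67 to 9.48 with a median of 8.46 at day 5, 4.18-fold lower (log2 change -2.06, SE 0.13, adjusted p = 1.48e-08). Slc16a3, the lactate exporter MCT4, fell 4.49-fold, from 10.56, 10.77, 11.78 and 11.77 to values of 8.73 to 9.32 with a median of 9.10. Neither gene overlapped between days. Aldoc, an aldolase, fell 4.68-fold, and the glucose transporter Slc2a1 1.98-fold. Pfkl and Tpi1, enzymes of the middle of the pathway, fell 2.29-fold and 2.19-fold. Ldha, lactate dehydrogenase, was not called (change -0.15, adjusted p = 0.0939), nor were Slc2a3 (-0.04), Hk1 (0.07) and Pfkp (0.11). Without the unstimulated Th1 array of day 0, Ldha was called lower (adjusted p = 0.00664).

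Of 12 genes of the hypoxia response, 11 fell and 0 rose (median -0.95), 7 of them as shared changes. Bnip3, a mitophagy receptor, stood at 8.76, 9.07, 10.46 and 9.79 at day 0 and at 6.26 to 7.09 with a median of 6.52 at day 5, 7.85-fold lower (adjusted p = 1.99e-09). Egln3, a prolyl hydroxylase that marks HIF proteins for decay, fell 4.62-fold, from 12.18, 12.48, 12.19 and 12.22 to values of 9.76 to 10.69 with a median of 9.90. Both fell in all 4 combinations without overlap. Vegfa, a vessel growth factor, fell 4.42-fold, and the endoplasmic reticulum enzymes Ero1a and P4ha1 fell 2.37-fold and 2.23-fold. Hif1a itself, the transcription factor of this response, was not called (change -0.15, adjusted p = 0.182). Fitted on restimulated arrays alone 7 members were called lower, and on Th1 arrays alone 6.

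The 250 bases before the annotated starts of hypoxia and glycolysis genes (RefSeq, GRCm38.p6) were searched on both strands. The search was for the core of the hypoxia response element, ACGTG or GCGTG. All 11 hypoxia list genes with a sequence in the table held it, as did 12 of 13 glycolysis genes, against 41.5% of 27025 genes. The glycolysis genes that held it included Hk1, Pfkp and Ldha, which were not called. Both lists were chosen by function, and the part of the motif in the falls was not tested. The upstream windows of Bnip3 (chr7:138909507-138909756, minus strand) and P4ha1 (chr10:59323046-59323295, plus strand), members that fell in all 4 combinations, are given 5′ to 3′ with the matches of either strand in capitals. A match describes the letters only.
Bnip3: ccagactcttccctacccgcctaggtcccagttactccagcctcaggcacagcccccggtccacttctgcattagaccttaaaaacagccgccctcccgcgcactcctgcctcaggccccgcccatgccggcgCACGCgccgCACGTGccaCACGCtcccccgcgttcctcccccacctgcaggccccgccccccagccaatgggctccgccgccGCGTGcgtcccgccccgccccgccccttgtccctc
P4ha1: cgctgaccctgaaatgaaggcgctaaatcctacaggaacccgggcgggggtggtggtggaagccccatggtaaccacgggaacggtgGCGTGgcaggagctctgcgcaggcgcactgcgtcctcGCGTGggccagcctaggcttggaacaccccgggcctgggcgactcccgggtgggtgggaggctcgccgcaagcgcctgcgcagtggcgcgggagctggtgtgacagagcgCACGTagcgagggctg

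**Figure D4:**
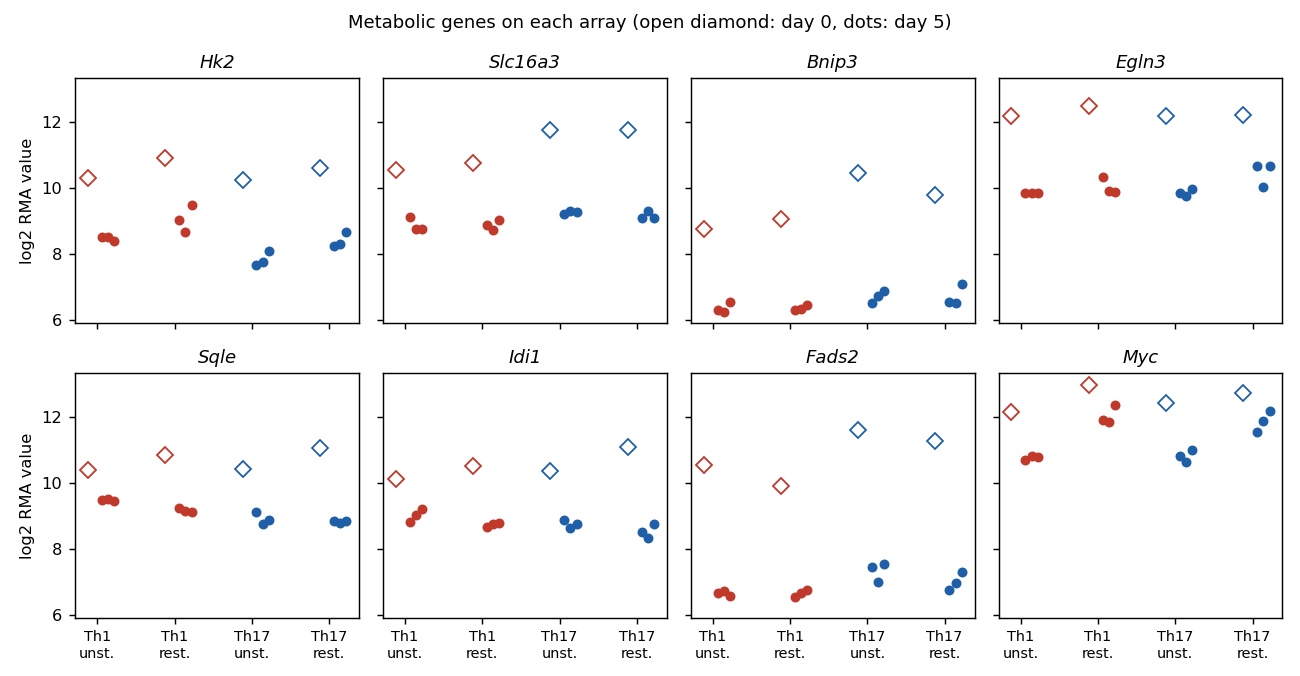
Log2 RMA value (y axis) of 8 genes of glycolysis, the hypoxia response, cholesterol and fatty acid synthesis and growth on each array, by type and restimulation (x axis), with the day 0 array as an open diamond and the 3 day 5 arrays as dots. Every dot lies below its diamond, and the mean change of Fads2 lies between -4.27 and -3.27 log2 units in the 4 combinations.

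Cholesterol synthesis genes fell along most of the pathway. Of 19 genes, 16 were lower at day 5 (84.2%), 14 of them shared, and 0 higher, with a median of -1.0. Sqle, which makes the first oxygenated sterol precursor, stood at 10.40, 10.85, 10.42 and 11.07 at day 0 and at 8.76 to 9.53 with a median of 9.13 at day 5, 2.99-fold lower (adjusted p = 3.95e-07). Idi1, an isomerase early in the pathway, fell 3.37-fold, from 10.13, 10.52, 10.35 and 11.08 to values of 8.35 to 9.22 with a median of 8.77. The groups of both genes lay apart. Hsd17b7, Lss, Msmo1 and Cyp51, enzymes of later steps, fell by 3.84-, 2.80-, 2.76- and 2.58-fold. Their falls were steeper in the restimulated parts for Hsd17b7 (changes -1.09, -2.41, -1.54 and -2.73). Hmgcs1, an early enzyme, fell 2.33-fold. The members not called were Nsdhl (-0.08), Dhcr7 (0.15) and Ebp (0.16). Ebp was called higher without the unstimulated Th1 array of day 0 (adjusted p = 0.0105) and Dhcr7 without the restimulated Th17 array (adjusted p = 0.0296).

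Fatty acid synthesis genes fell too, 9 of 10, with 0 higher and a median of -0.62. Fads2, a desaturase of polyunsaturated fatty acids, stood at 10.55, 9.93, 11.61 and 11.29 at day 0 and at 6.56 to 7.55 with a median of 6.75 at day 5, 15.2-fold lower (log2 change -3.92, SE 0.14, adjusted p = 2e-11). The day 0 and day 5 values were far apart in each combination. Scd1, which makes monounsaturated fats, changed by -1.61, -1.83, -4.30 and -4.87, and Elovl6, which lengthens fatty acids, fell 2.81-fold. Only these 3 of the 9 falls were shared, and on Th1 arrays alone 3 members were called lower. Acaca and Fasn, the core enzymes of the pathway, fell 1.54-fold and 1.53-fold, with changes above 0 in unstimulated Th1 cells (0.26, -0.96, -0.86 and -0.92 and 0.29, -1.24, -0.63 and -0.88). Elovl5 was not called (change 0.41, adjusted p = 0.0965) but was called higher without the unstimulated Th1 array of day 0 (adjusted p = 2.15e-06).

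The windows before cholesterol genes were searched for the sterol regulatory element as TCACNCCAC and for the CCAAT box, a site often found beside it, on both strands. The sterol element was found in 1 of 15 genes with a sequence, Hmgcs1, and in 0 of 7 fatty acid genes, against 1.22% of all genes. The CCAAT box was found in 15 of 15 cholesterol genes against 37.5% of all genes. These included Nsdhl, Dhcr7 and Ebp, which were not called, and the part of the box in the falls was not tested. The windows of Hmgcs1 (chr13:119690101-119690350, plus strand) and Idi1 (chr13:8885356-8885605, plus strand) show these matches in capitals, the 9-letter run in Hmgcs1 being the sterol element and ATTGG the CCAAT box on the other strand. Absence of a match says only that these letters are not in the window.
Hmgcs1: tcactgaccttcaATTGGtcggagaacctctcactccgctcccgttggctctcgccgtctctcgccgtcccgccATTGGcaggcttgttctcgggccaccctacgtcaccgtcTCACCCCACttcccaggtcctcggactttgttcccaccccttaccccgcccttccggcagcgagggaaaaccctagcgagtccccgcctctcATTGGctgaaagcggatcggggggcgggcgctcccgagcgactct
Idi1: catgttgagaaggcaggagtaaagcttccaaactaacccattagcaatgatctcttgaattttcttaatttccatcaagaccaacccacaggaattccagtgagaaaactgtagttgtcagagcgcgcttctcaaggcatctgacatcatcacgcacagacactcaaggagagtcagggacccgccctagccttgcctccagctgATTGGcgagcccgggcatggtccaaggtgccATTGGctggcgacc

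Genes of Myc and ribosome biogenesis fell in part. Of 15 measured, 11 were lower (73.3%) and 0 higher, with a median of -0.50 and 5 shared falls. Myc, the growth regulator, stood at 12.15, 12.99, 12.44 and 12.74 at day 0 and at 10.63 to 12.36 with a median of 11.27 at day 5, 2.29-fold lower (adjusted p = 4.51e-06). Every day 5 array lay under the day 0 array of its own combination, although restimulated day 5 arrays reached the range of unstimulated day 0 arrays. Odc1, which starts polyamine synthesis, fell 2.09-fold, and the nucleolar proteins Gnl3 and Pes1 fell 1.68-fold and 1.55-fold. Polr1b, a subunit of RNA polymerase I, changed by -0.01, -1.97, -0.92 and -1.58, so unstimulated Th1 cells hardly moved. On unstimulated arrays alone 4 members were called lower, and on Th1 arrays alone 5.

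Of 18 genes of amino acid supply and the Atf4 response, 4 fell (22.2%, against 19.1% of all genes) and 0 rose (against 18.3%). Slc7a11, the cystine transporter, fell 7.57-fold, from 7.35, 9.03, 8.73 and 9.58 to values of 5.19 to 7.83 with a median of 5.45. The other falls were weaker and depended on single arrays. Slc7a5, Asns and Slc3a2 had changes of -0.32, -0.54 and -0.18 (adjusted p = 0.0464, 0.0434 and 0.0245), and without the restimulated Th17 array of day 0 adjusted p was 0.277, 0.324 and 0.0792. With the sample as a block adjusted p of Slc7a5 was 0.0514. The list's count went to 1 without either Th17 array of day 0, and to 2 without the restimulated Th1 array of day 0 or without any of 8 of the 12 day 5 arrays. Atf4 itself was not called (change -0.01, adjusted p = 0.930). Of 22 genes of the respiratory chain 2 rose and 2 fell (median 0.01), below the shares of all genes. Without the restimulated Th17 array of day 0 1 rose. Centring gave 10 higher and cyclic loess 6 lower, so no direction is given for this list. Ndufa4 rose 1.47-fold and Ndufs3 fell 1.22-fold, the former an electron transport protein and the latter a subunit of complex I.

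Cell cycle genes rose by small amounts, mainly in the restimulated parts. Of 23 mitosis and spindle genes 12 were higher (52.2%) and 0 lower, with a median of 0.36, and of 25 DNA replication genes 15 were higher (60.0%) and 0 lower, with a median of 0.30. Mki67, the proliferation antigen, stood at 11.53, 10.79, 11.73 and 11.06 at day 0 and at 12.07 to 12.43 with a median of 12.21 at day 5, 1.94-fold higher (log2 change 0.95, SE 0.09, adjusted p = 8.7e-07). No day 5 array reached down to a day 0 value. Cdca8, a subunit of the chromosomal passenger complex, rose 1.58-fold. The replication genes Lig1, which joins DNA fragments, and Pola1, a subunit of DNA polymerase α, rose 1.72-fold and 1.67-fold. The rises were steepest in restimulated Th1 cells, for example 0.36, 1.52, 0.31 and 0.93 for Lig1. At day 0 the mitosis list mean was 10.87 in unstimulated and 9.49 in restimulated Th1 parts, and 10.78 and 10.07 in Th17 parts. At day 5 it lay at 10.92 to 11.05 in unstimulated Th1 and 10.68 to 10.88 in unstimulated Th17 parts. In restimulated parts of day 5 it lay at 10.41 to 10.50 (Th1) and 10.23 to 10.52 (Th17). Without the restimulated Th1 array of day 0, 7 mitosis genes and 8 replication genes were called higher. On unstimulated arrays alone the counts were 2 and 3, with array weights 4 and 8, and after centring 20 mitosis genes rose. Rfc3, with a change of -0.35 (adjusted p = 0.0637), was the replication gene farthest below 0, and was called lower without either Th1 array of day 0 (adjusted p = 0.0464 without the unstimulated and 0.00281 without the restimulated one) or restimulated Th1 array 1 of day 5.

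Type I interferon response genes were higher. Of 21, 13 rose (61.9%) and 0 fell, with a median of 0.47. Oas3, an antiviral RNA sensor, stood at 10.44, 8.98, 9.19 and 9.01 at day 0 and at 10.09 to 11.25 with a median of 11.01 at day 5, 2.67-fold higher (adjusted p = 7.23e-06). Every day 5 array lay above its own day 0 array. Mx1, an antiviral GTPase, rose 2.58-fold (changes 0.58, 0.93, 2.49 and 1.47), and Xaf1 rose 2.14-fold. Ifit3, which binds viral RNA complexes, stood at 8.19, 5.74, 5.09 and 6.06 at day 0, and its change ran from 0.06 and 1.90 in unstimulated and restimulated Th1 cells to 3.77 and 1.83 in Th17 cells. On unstimulated arrays alone 6 genes of the list were called higher and on Th1 arrays alone 5, with 4 lower there. Without the unstimulated Th17 array of day 0, 3 of the list fell. Usp18 and Oasl2, with changes of -0.52 and -0.51 (adjusted p = 0.144 and 0.234), were the members farthest below 0, and both were among those 3 (adjusted p = 4.06e-05 and 0.00123).

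The windows before these genes were searched for the interferon-stimulated response element, taken as GAAA, any 2 bases and GAAA, on both strands. It was found in 7 of 15 list genes with a sequence, against 3.46% of all genes. The windows of Oas3 (chr5:120777660-120777909, minus strand) and Ifit3 (chr19:34583279-34583528, plus strand) are shown with the matches in capitals, those of Ifit3 lying on the other strand.
Oas3: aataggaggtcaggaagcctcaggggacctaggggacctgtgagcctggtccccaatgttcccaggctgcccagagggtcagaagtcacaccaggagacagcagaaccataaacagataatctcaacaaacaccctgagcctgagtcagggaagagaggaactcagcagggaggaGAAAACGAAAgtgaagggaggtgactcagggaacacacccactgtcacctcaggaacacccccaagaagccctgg
Ifit3: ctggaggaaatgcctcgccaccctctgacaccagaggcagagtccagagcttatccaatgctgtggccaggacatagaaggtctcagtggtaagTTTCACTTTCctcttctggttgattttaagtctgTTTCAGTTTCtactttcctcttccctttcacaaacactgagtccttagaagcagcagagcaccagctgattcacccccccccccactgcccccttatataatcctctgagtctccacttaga

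Several families tied to T cell identity rose. Of 8 Gimap genes, GTPases that support lymphocyte survival, 7 rose (87.5%, against 18.3% of all genes) and 0 fell, with a median of 0.74. Of the rises 4 were shared, and 4 genes were called higher on unstimulated arrays alone and 4 on Th1 arrays alone. In unstimulated Th1 parts the list mean was 10.84 at day 0 and 10.89 to 11.02 at day 5. Gimap7 stood at 10.64, 8.16, 8.76 and 7.58 at day 0 and at 9.58 to 10.96 with a median of 10.45 at day 5, 3.19-fold higher (adjusted p = 6.62e-05). Gimap8 rose 1.69-fold without overlap and Gimap3 1.65-fold. The genes of this family are close relatives, so probe sets may share signal. Of 13 genes of the T cell receptor complex 8 rose (61.5%, against 18.3% of all genes) and 0 fell (median 0.27). Ptprc, the phosphatase CD45, rose 1.42-fold and Cd4 1.45-fold, from 12.39, 11.90, 12.71 and 12.37 to values of 12.72 to 13.08 with a median of 12.83. Cd3e (change 0.12, adjusted p = 0.102) and Thy1, the basis of the sort (-0.01, adjusted p = 0.909), were not called, though centring called both higher and cyclic loess called Thy1 lower.

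Of 18 immediate early genes 8 rose (44.4%) and 2 fell (11.1%), with a median of 0.35. Fosb, an AP-1 subunit, stood at 6.78, 10.78, 6.71 and 9.27 at day 0 and at 8.74 to 12.04 with a median of 10.19 at day 5, 4.04-fold higher (adjusted p = 1.25e-04). Zfp36, which destabilises cytokine mRNA, rose 1.89-fold without overlap. Ier3, an early stress response gene, fell 5.05-fold, from 8.86, 10.09, 9.98 and 10.50 to values of 7.24 to 7.85 with a median of 7.56. The falls numbered 1 without the unstimulated Th1 array of day 0 and 4 without the unstimulated Th17 array. Of 10 heat shock chaperones 2 rose and 2 fell, close to the shares of all genes. The falls numbered 1 with the sample as a block, without the restimulated Th1 array of day 0 and without any of 10 of the 12 day 5 arrays, and 0 without the restimulated Th17 array of day 0. The rises numbered 1 without the unstimulated Th1 array of day 0. None of the 4 calls held without the unstimulated Th17 array of day 0, and Hspa1a, the inducible Hsp70, changed by -0.25, 1.33, 3.28 and 2.11 (adjusted p = 0.00905, and 0.0712 without that array).

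Genes of the Th17 program fell. Of 10 measured genes 7 were lower (70%, against 19.1% of all genes) and 0 higher, with a median of -1.38. Ahr, the aryl hydrocarbon receptor, stood at 10.32, 10.52, 11.38 and 10.97 at day 0 and at 8.55 to 9.74 with a median of 9.30 at day 5, 2.90-fold lower (adjusted p = 2.99e-05). The groups did not overlap in either type. Tmem176a and Tmem176b, membrane proteins found in Th17 cells, fell 2.66-fold and 2.54-fold. Il17a, the signature cytokine, stood at 6.17, 7.17, 11.86 and 12.82 at day 0, so that only Th17 arrays were high, and changed by 0.22, -0.68, -4.97 and -2.55 (adjusted p = 0.00667). Il17f changed by 0.30, -0.46, -6.07 and -3.38, and was not called without the restimulated Th17 array of day 0 (adjusted p = 0.0561). Ccr6, a receptor of Th17 cells, was not called (change -0.48, adjusted p = 0.103), though it was called lower without the unstimulated Th1 array of day 0 (adjusted p = 0.0217).

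Of 11 genes of the Th1 program 4 rose (36.4%, against 18.3% of all genes) and 1 fell (9.1%, against 19.1%). Without the restimulated Th1 array of day 0, 2 fell. Stat4, which transmits IL-12 signals, rose 1.70-fold, from 11.88, 11.28, 11.59 and 11.45 to values of 12.11 to 12.59 with a median of 12.29. Hlx, a homeobox partner of T-bet, fell 2.09-fold. The other rises were those of Cxcr3, Tbx21 and Il18rap given above. Ifng was not called (change 0.30, adjusted p = 0.394), with changes of -0.54, -0.34, 1.30 and 0.77; fitted on Th1 arrays alone it was called lower (change -0.44, limma adjusted p = 0.0210). Of 13 Th2, follicular helper and regulatory genes, 3 rose (23.1%, against 18.3% of all genes) and 1 fell (7.7%, against 19.1%). Foxp3, the factor of regulatory T cells, stood at 9.15, 8.27, 8.46 and 8.73 at day 0 and at 9.21 to 11.05 with a median of 9.75 at day 5, 2.52-fold higher (adjusted p = 2.44e-04). Nrp1, a receptor of regulatory T cells, changed by 2.50, 0.15, 3.11 and 0.23, with the values above 2 in the unstimulated parts. Il10 changed by -4.98, -3.24, -0.79 and -0.49. The falls of this list numbered 2 without both parts of Th17 sample 1 of day 5.

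Cytotoxic granule genes split by member. Of 15, 4 rose (26.7%, against 18.3% of all genes) and 7 fell (46.7%, against 19.1%), with a median of -0.48. The falls numbered 3 without either Th1 array of day 0, and the rises 2 without either Th17 array of day 0. With the parts of each sample averaged, 2 rose and 3 fell. Gzmd, a granzyme of a cluster of close relatives that may share probes, changed by -6.36, -6.31, -0.27 and -0.52 (adjusted p = 0.00285). Gzmm, another granzyme, rose 2.38-fold. Gzma had a change of -0.74 with an adjusted p of 0.0486, which went to 0.279 without the unstimulated Th1 array of day 0, and which 10 other single arrays also moved past 0.05. Gzmb, granzyme B, was not called (change -0.13, adjusted p = 0.663). Of 8 killer lectin-like receptors 2 rose (25%, against 18.3% of all genes) and 4 fell (50%, against 19.1%). Klrd1, the CD94 chain of NKG2 receptors, stood at 10.25, 9.80, 10.37 and 10.09 at day 0 and at 7.78 to 8.84 with a median of 8.17 at day 5, 3.69-fold lower (adjusted p = 6.62e-09). Its partners Klrc1 (NKG2A) and Klrc2 (NKG2C) fell 3.60-fold and 2.03-fold and Klrk1 (NKG2D) 2.86-fold. Klrb1f rose 3.34-fold and Klrb1c 2.30-fold. These receptors are also close relatives.

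Inhibitory receptors were mostly higher, with a median of 0.46. Of 12, 7 rose (58.3%, against 18.3% of all genes) and 1 fell (8.3%, against 19.1%). Tigit, a receptor for nectins, stood at 10.22, 11.38, 8.93 and 9.70 at day 0 and at 11.83 to 12.25 with a median of 12.12 at day 5, 4.16-fold higher (adjusted p = 1.15e-05). The day 5 values lay in a narrow band above every day 0 value. Btla rose 1.87-fold and Pdcd1, which encodes PD-1, 1.61-fold (changes 0.61, 0.38, 1.36 and 0.39). Cd244a, the receptor 2B4, fell 4.06-fold, and without the unstimulated Th17 array of day 0 2 members of the list fell. Ctla4 was not called (change -0.06, adjusted p = 0.666). Of 13 TNF family and costimulatory genes 2 rose (15.4%, against 18.3% of all genes) and 4 fell (30.8%, against 19.1%). The rises numbered 1 without the unstimulated array of either type of day 0, and the falls 2 without the Th1 one. Tnfrsf9, the receptor 4-1BB, fell 2.33-fold, and Tnfsf10, which encodes TRAIL, rose 1.58-fold.

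Recall cytokines and chemokines were lower for 8 of 18 genes (44.4%, against 19.1% of all genes). They were higher for 1 (5.6%, against 18.3%), and the median was -0.59. Tnf fell 2.06-fold, from 11.44, 13.50, 11.26 and 13.12 to values of 9.65 to 12.71 with a median of 11.27. Xcl1, lymphotactin, changed by -1.41, -3.62, 0.14 and -3.25, so its fall lay mainly in restimulated parts. Ccl5, a chemokine of memory T cells, rose 2.16-fold (changes 0.86, 0.57, 1.5 and 1.52). Il2 was not called (change -0.67, adjusted p = 0.0626), but was called lower without the unstimulated Th1 array of day 0 (adjusted p = 0.00296) or restimulated Th1 array 3 of day 5.

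Of 13 Bcl2 family and death genes 1 rose (7.7%) and 2 fell (15.4%), under the 18.3% and 19.1% of all genes. The rises went to 3 without the unstimulated Th1 array of day 0 and the falls to 1 without the unstimulated Th17 array. Pmaip1, the pro-apoptotic protein Noxa, rose 1.78-fold without overlap, from 8.62, 8.54, 8.40 and 8.56 to values of 8.81 to 9.99 with a median of 9.39. Bcl2l11, which encodes Bim, was not called (change 0.23, adjusted p = 0.343), but was called higher without the unstimulated Th1 array of day 0 (adjusted p = 0.0309). Of 10 p53 targets 4 fell (40%) and 0 rose, or 2 rose without the unstimulated Th1 array of day 0. Tnfrsf10b, a death receptor, fell 2.44-fold and Zmat3, an RNA-binding protein, 1.59-fold. Of 14 lysosome and autophagy genes 7 fell (50%) and 1 rose (7.1%). The rises went to 2 without the unstimulated Th1 array of day 0 or both parts of Th17 sample 1 of day 5. Ctsl, a lysosomal protease, fell 3.80-fold, from 8.62, 8.66, 8.89 and 8.63 to values of 6.01 to 7.72 with a median of 6.84. Hexa, a lysosomal hexosaminidase, fell 2.72-fold and Gabarapl1, an autophagosome protein, 2.10-fold. Tfeb, the regulator of lysosomal genes, rose 1.72-fold.

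Changes of 1 helper type are given as values with no test, since each combination has 1 array at day 0. A gene was counted where both parts of a type changed by more than 1.5 log2 units in the same direction, with the day 0 array outside the day 5 range, and both parts of the other type by less than 0.5. In this way 2 genes were higher and 11 lower in Th1 cells, and 7 were higher and 44 lower in Th17 cells. Leaving out unstimulated Th1 array 3, restimulated Th1 array 1 or 2 or unstimulated Th17 array 2 of day 5 left 1 gene higher in Th1 cells.

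Of the 11 genes lower in Th1 cells 5 were granzymes. Gzme stood at 10.53 and 10.37 log2 units in unstimulated and restimulated Th1 cells at day 0 and at 5.65 ± 0.15 and 5.82 ± 0.11 (SD, n = 3) at day 5, changes of -4.88 and -4.54. In Th17 cells it changed by 0.08 and -0.14. Gzmg, Gzmf and Gzmc behaved alike, with Th1 changes of -4.63 and -4.37 for Gzmg, -3.43 and -3.65 for Gzmf and -2.75 and -3.29 for Gzmc. These relatives may share probes, and the values of Gzme, Gzmg and Gzmf in Th17 cells and at day 5 lay under the array medians. P2rx3, an ATP-gated channel, changed by -3.98 and -3.28 in Th1 cells, and Nts, the precursor of neurotensin, by -1.53 and -3.32. Ppp2r2c, a regulatory subunit of phosphatase 2A, and Tmem159 changed by -2.62 and -1.63 and -1.94 and -1.67. The 2 genes higher in Th1 cells were Hrh4, a histamine receptor (1.64 and 1.55), and Cx3cr1, the fractalkine receptor (1.56 and 1.58).

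In Th17 cells Nkg7, a granule protein of cytotoxic and Th1 cells, stood at 8.66 and 10.14 at day 0 and at 12.94 ± 0.11 and 12.93 ± 0.14 (SD, n = 3) at day 5, while it changed by 0.06 and -0.10 in Th1 cells. At day 5 the Th17 arrays, at 12.78 to 13.07, lay just under the Th1 arrays, at 13.12 to 13.27. Izumo1r, the folate receptor 4 of regulatory and follicular T cells, changed by 2.32 and 1.68 in Th17 cells and 0.42 and 0.36 in Th1 cells. Lgals3, which encodes galectin-3, changed by 1.80 and 1.60 in Th17 cells. Kbtbd11, Ephx1, Kcnma1 and Grap were the other genes higher in Th17 cells, with mean changes of the model between 0.83 (Grap) and 1.01 (Kcnma1) over all 4 combinations.

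The 44 genes lower in Th17 cells mixed cytokines with genes of other cells. Il17f stood at 13.00 and 13.32 in Th17 cells at day 0 and at 6.94 ± 0.16 and 9.94 ± 0.26 (SD, n = 3) at day 5. Its values in Th1 cells changed by 0.30 and -0.46. Dab2, an adaptor of endocytosis found in macrophages, changed by -6.34 and -5.09 in Th17 cells, and Cybb, the phagocyte oxidase chain, by -3.08 and -3.88. Lum, a matrix proteoglycan of fibroblasts, changed by -3.57 and -5.39 and Il12b, the p40 chain of IL-12 and IL-23, by -3.78 and -4.21. Crispld2, Bpifc and Moxd1 changed by -3.84 and -3.60, -2.49 and -4.18 and -4.11 and -2.37. The myeloid and fibroblast lists were higher in the Th17 than in the Th1 arrays of day 0 (myeloid means 9.08 and 8.66 against 6.70 and 6.50, fibroblast means 7.51 and 7.55 against 6.92 and 6.95), and their part in these values was not tested.

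**Figure D5:**
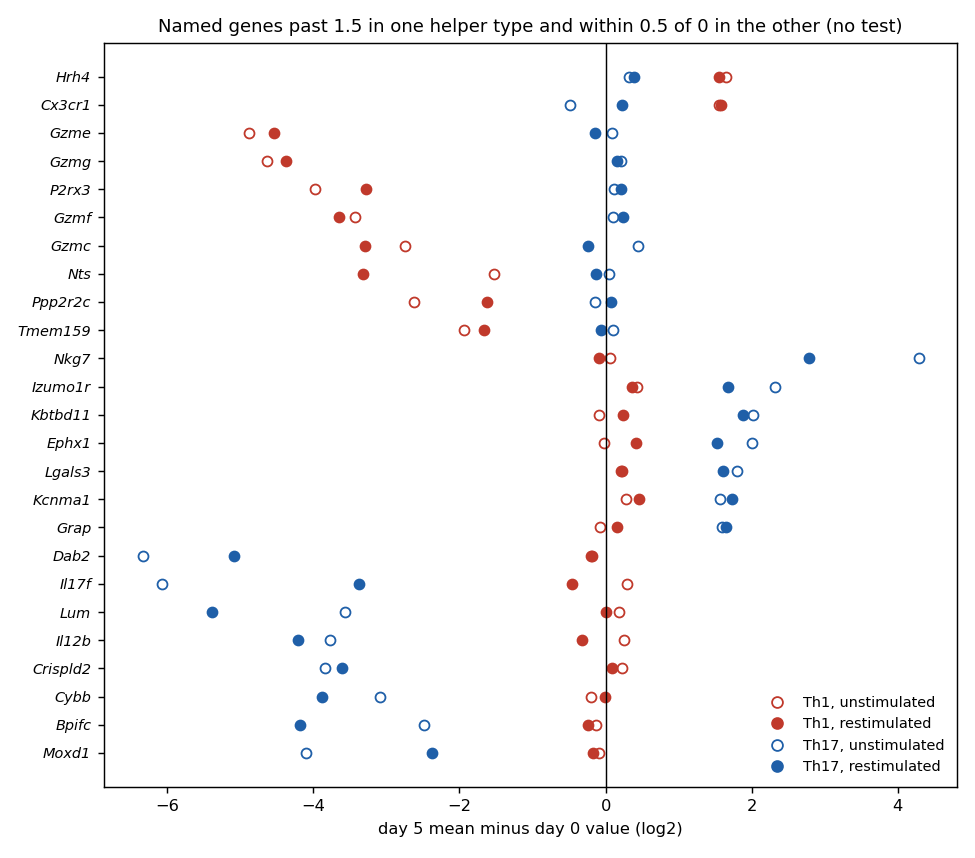
Day 5 mean minus day 0 value (x axis, log2) of the named genes that passed 1.5 in both parts of 1 helper type and stayed within 0.5 of 0 in the other, red for Th1 and blue for Th17, open for unstimulated and filled for restimulated parts. Gzme, Gzmg and Gzmf lie to the left in Th1 cells, Nkg7 to the right in Th17 cells and Dab2 to the left in Th17 cells.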

How the data were processed

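Gene expression was measured on Affymetrix mouse gene arrays, and the deposited values are log2 RMA values that the authors made with Affymetrix Expression Console, per the submitters' processing notes. RMA subtracts background, gives all arrays 1 distribution and summarises the probes of each set, so levels of different genes are not compared. Neither software versions nor the arrays that were normalised together are stated in the labels. Medians of the 16 arrays compared, over all probe sets, ran from 6.77 to 7.03. The number of arrays limits the precision.

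A single gene symbol was paired with 21789 of 35556 probe sets; the 1621 with several symbols and the 12146 with none here were not used. For 999 genes with several probe sets the one with the highest mean over all 28 arrays was taken, which left 19938 genes. limma 3.58.1 (R 4.3.3) fitted day, polarization, restimulation and the interaction of the last 2 to the 16 arrays by lmFit and eBayes. Residual degrees of freedom were 11, and p-values were adjusted by Benjamini-Hochberg over all genes. The 31 functional and 7 marker lists (500 of 548 entries measured) and 5 marker lists added after values were seen (81 of 90) were counted, not tested. The members and lists were chosen with earlier results of these data known.

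Genes were named from up to 15 each way with the largest shared changes of at least 2-fold in each combination (clone names left out), the 6 called members of a list with the largest changes, members not called, a panel, and up to 8 each way for each helper type. Not every gene this allows is named, and that choice followed their values. Outside it, Ccl5, Gzmm, Hmgcs1, Il3, Itgb7, S1pr4 and Tnf were picked after their values were seen. Whether the numbers pair the parts was checked from how parts of 1 number deviate from their group means over 9969 genes, as a correlation. At day 5 the numbers pair the parts of a sample (0.164 to 0.215 in Th1, 0.411 to 0.486 in Th17), taken up as a random block in an alternative. Other alternatives were other models, arrays, normalisations, filters and weights, and leaving out each array. The fit was also run on simulated data with 200 changed genes and noise drawn independently for each array. It recovered 76% of changes of 0.5 log2 units (7 false calls) and 97% of changes of 1 (13 false calls). Pairing of parts, a shared day 0 culture and disagreement of the combinations were not simulated, so their effect was not tested.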

Additional observations from a re-analysis of the deposited data

Results flagged for a closer look

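In 5 of the genes named above, every day 5 array of 1 helper type lay above its day 0 array and every day 5 array of the other type below. The difference between the types was not tested, since each combination has 1 array at day 0. For Ifng the mean change was 1.03 in Th17 cells and -0.44 in Th1 cells, a difference of 1.47 log2 units. For Gzmg it was 0.18 in Th17 cells and -4.50 in Th1 cells (difference 4.68), and for Gzmf 0.17 and -3.54 (difference 3.71). Both lay under the array medians on every Th17 array and on every day 5 array, where they are not shown to be above background, so neither the sign of the Th17 values nor the exact difference can be read from them. They are close relatives whose probe sets may share signal. Crispld2, whose Th1 values lay near the array medians, had mean changes of 0.15 in Th1 cells and -3.72 in Th17 cells (difference 3.87). For Thy1, the marker of the sort, the mean changes were 0.09 in Th1 cells and -0.10 in Th17 cells, a difference of 0.19.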

How the results depend on the processing

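The count of 7443 called genes was 7249 with the sample as a replicate block for its 2 parts (random effect, correlation 0.04), and the block moved 1 count of the report by over 1.5 times, the falls of heat shock chaperones (2 to 1), and ended the call of Slc7a5 alone among the named genes. With the parts of each sample averaged, 6630 genes were called and 16 of the 204 named genes (Zeb2 and Id2 not counted) were no longer called. Among these were Ccr4, Il7r, Gzma, Slc7a5 and Slc3a2, and the other 11 were genes given for 1 helper type. Averaging also took the falls of chemokine receptors from 2 to 1 and of fibroblast markers from 1 to 0, and those of plasma cell genes from 1 to 2. Leaving out each array gave 5655 to 7506 calls. Unstimulated arrays alone gave 4877 calls (2188 higher) and Th1 arrays alone 4124 (1830 higher, 2294 lower). Array weights, which were 0.20 to 0.67 for the day 0 arrays, gave 4944 (2086 higher). Centring on array medians of the 19938 genes gave 12365 (9604 higher) with 6659 shared changes. Shared rises of at least 2-fold in each combination numbered 82 to 164 when an array was left out (164 without the unstimulated Th1 array of day 0), and shared falls of that size 170 among the 9969 genes above the median. With a limit of 1 log2 unit in 1 type, 14 genes were higher and 25 lower in Th1 cells and 19 higher and 103 lower in Th17 cells, and leaving out day 5 arrays gave 1 to 2 higher in Th1 cells.

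Of these 204 genes named (Zeb2 and Id2 not counted), 164 kept their call when each array was left out in turn. On Th1 arrays alone the sign turned for Crispld2 (0.15), Lum (0.093), Nkg7 (-0.019), Ifng (-0.44, called) and Slc2a3 (0.38, called). On Th17 arrays alone it turned for Gzma (0.28), Gzmc (0.10), Gzmf (0.17), Gzmg (0.18), P2rx3 (0.17) and Tmem159 (0.017), on unstimulated arrays for Asns (0.0038) and after centring for Thy1 (0.12, called). The cause was not tested. Each combination has 1 day 0 array, and the parts of a type at day 0 may share a culture, which limits every comparison. No detection calls were used, so a value near an array's median may be background.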

Other observations

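More genes differed between restimulated and unstimulated parts at day 0 than in any pair of day 5. In Th1 cells the day 0 parts differed at least 2-fold for 736 genes higher and 1140 lower after restimulation, and the 3 day 5 pairs for 151 to 238 genes higher and 11 to 56 lower. In Th17 cells the counts were 358 higher and 151 lower at day 0, and 114 to 220 higher and 21 to 142 lower at day 5. With 1 pair of arrays at day 0 for each type these are values with no test.

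Il2 was higher in the restimulated parts by 6.69 log2 units in Th1 cells at day 0 and 5.53 at day 5, but by 3.60 and 4.71 in Th17 cells. Il3, a growth factor of mast cells, was higher by 7.63 and 5.68 in Th1 cells and by 7.49 and 4.91 in Th17 cells. The chemokine Xcl1 was higher by 4.52 and 2.31 in Th1 cells and by 4.26 and 0.86 in Th17 cells. Il17a in Th17 cells was higher by 0.97 at day 0, where its unstimulated value was already high, and by 3.39 at day 5. The increments of Tnf were 2.06 and 2.26 in Th1 cells and 1.86 and 1.74 in Th17 cells, and those of Nr4a1, an early gene of receptor signalling, 3.93 and 2.99 in Th1 cells and 2.33 and 2.52 in Th17 cells.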
